A study of Homo sapiens with 4 samples.

Results

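Histones are the proteins around which DNA is wound in the nucleosome, and their genes come in 2 kinds. The replication-dependent genes lie in clusters named HIST1 to HIST4, have no introns, and supply the core histones H2A, H2B, H3 and H4 and the linker histone H1 while DNA is copied in S phase. Their mRNAs usually end in a stem-loop that the stem-loop binding protein SLBP recognises, not in a poly(A) tail. Many, but not all, of the genes outside the clusters are transcribed through the whole cell cycle into polyadenylated mRNAs and code for replacement variants. Examples are the H3 variant of H3F3A and H3F3B, H2A.Z of H2AFZ and H2AFV, macroH2A of H2AFY and H2AFY2, and the linker histones of H1F0 and H1FX.

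The histone genes were taken as the gene probes whose name in the array files starts with HIST1, HIST2, HIST3, HIST4, H1F, H2AF, H2BF or H3F. This gave 77 of 14297 gene probes for 76 gene names, as HIST2H3A had 2 probes. Of these, 64 probes belonged to the clusters and 13 lay outside them. The probes were hybridised with RNA of K562 cells, a human erythroleukemia line, treated for 4 h with the compound AC-1041, against RNA of control K562 cells, which the sample labels call untreated and the methods of the study call a DMSO control. Both RNAs were compared directly on each of 4 two-colour arrays, with the treated RNA in Cy5 on arrays 1 and 2 and in Cy3 on arrays 3 and 4. The sample labels give no dose, while the methods of the study state one. Those methods also state that 4 samples were collected per compound, with their controls. Neither source says that each array had its own pair of cultures. The p-values therefore measure the spread between arrays, which may be technical.

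Before labelling, the RNA was amplified with a kit that primes on poly(A) tails. The probes therefore read histone mRNA that carried a poly(A) tail or was copied from an internal run of A, and the share of each was not measured. The compound acted on a bulk culture, in which fewer cells making a histone mRNA and less of it per cell cannot be told apart.

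In the treated cells, replication-dependent H3 genes were mostly lower, and H4 genes split, with 5 of the 11 tested probes lower and 1 higher, while few H2A and H2B genes and no H1 gene passed the threshold. To be tested, a probe needed 2 or more arrays on which either channel stood well above background, and 3 or more unmarked spots that covered both dye orientations. A change was called at an adjusted p under 0.05 (limma, with a dye term and Benjamini-Hochberg adjustment over all tested probes). Of the 64 histone probes that could be tested, 6 were higher and 18 lower in treated cells. Over all 8852 tested probes, 24.3% were higher and 13.0% lower. Among the 57 tested cluster probes 5 were higher, or 8.77%, and 16 lower, or 28.1%, with a median log2 ratio of -0.10, against 0.02 over all tested probes. Of the 7 tested probes outside the clusters 1 was higher and 2 were lower, and their median log2 ratio was 0.02. The counts leaned on array 4, without which 1 cluster probe was lower (HIST1H3A), 4 were higher and none changed outside the clusters. Calls over all probes also fell without array 4, to 1010 higher and 283 lower of 7997 tested. Without array 3, 11 cluster probes were lower and none changed outside the clusters, against 1244 higher and 444 lower of 8011 over all probes.

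Several facts of the arrays bear on every value below. Across the 64 histone probes, which share dyes and slide and are no replicates, arrays of one orientation correlated at 0.65 (treated RNA in Cy5) and 0.91 (Cy3), and arrays of opposite orientation at -0.29 to -0.13. A dye effect passed the same threshold in 27 of the 64 histone probes and in 58.2% of all tested probes. Because this term takes up the difference between the orientations, the limma standard errors (SE) and adjusted p-values come from the spread within an orientation, and the SD given beside them covers all arrays measured. Without the dye term no histone probe was past the threshold in limma, against 0.627% of all probes, and 10 had an unadjusted p under 0.05. Feature Extraction had marked 10 histone spots on array 1 and 1 on array 2 as outliers, and these were left out. Of 9 K562 marker genes on the array, 7 cleared the background in treated and control RNA on each array, among them the globin genes HBG1, HBE1 and HBZ. Of the markers of other cell types, CD79A, EPCAM and KRT19 did so as well, while MS4A1, CDH1, COL1A1 and COL1A2 did so on no array. Their part in the histone values was not tested.

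Several of the H3 probes read the same stretch of coding sequence, which lets the small differences between gene copies be seen. Of the 13 H3 probes of the clusters, 6 cover a common run of 7 codons, found by translating the probes. The lines below give these 21 bases from 5′ to 3′, ordered by the fitted log2 ratio, with the 7 positions at which the 6 probes differ in capitals.
HIST1H3A: ttCcagcgCCtGgtGcgCgaG
HIST1H3E: ttTcagcgCCtGgtGcgAgaA
HIST1H3I: ttTcagcgCTtGgtAcgGgaG
HIST1H3H: ttTcagcgTCtGgtGcgTgaG
HIST1H3F: ttCcagcgTCtGgtAcgTgaG
HIST1H3D: ttCcagcgTCtAgtCcgTgaG
The 5 other probes differ from HIST1H3A at 3 or 4 of the 21 bases. In the treated cells the first 4 of these probes were lower, HIST1H3F passed in neither direction and HIST1H3D was higher. The complete 60-base probes of the lowest and the highest of them are shown next, with the shared codons in capitals, on hg18 at chr6:26128860-26128919 (plus strand) and chr6:26305197-26305256 (minus strand).
HIST1H3A: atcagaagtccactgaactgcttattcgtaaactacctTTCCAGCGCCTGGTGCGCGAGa
HIST1H3D: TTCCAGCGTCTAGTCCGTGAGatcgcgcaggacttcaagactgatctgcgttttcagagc

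A probe of a near-identical copy can take up RNA of its neighbour, so the overlaps among the histone probes were counted. Among the 77 probes, 8 pairs matched at 90% or more of an ungapped stretch of at least 30 bases. They were made up of 12 probes, of which 4 were called. Probes were compared with each other and not with the transcripts of other gene copies. The count therefore does not show that any probe read a single gene. The HIST1H3D probe matched that of HIST1H3F at 41 of 45 bases and that of HIST1H3H at 28 of 31, and the 3 log2 ratios were 0.54, -0.10 and -0.29. The probes of HIST1H4J and HIST1H4K, which matched at 40 of 41 bases, gave nearly the same value, -0.30 and -0.29, and these neighbours cannot be counted as separate observations.

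The letters of the stem-loop are present in few probes. The pattern searched runs, from 5′, GG, 2 free bases, CTTTT, 1 free base, AG, 2 free bases and CC. It was found in the probes of HIST2H2AA3 and HIST1H4K alone, which are 2 of all 14297 gene probes on the array (0.014%), read on the strand of the probe. These probes lie on hg18 at chr1:148089729-148089785 (plus strand) and chr6:27906933-27906992 (minus strand), and the stretches are shown from 5′ to 3′ with the pattern in capitals.
HIST2H2AA3: aaaaGGCTCTTTTCAGAGCCaccc
HIST1H4K: aaaaGGCCCTTTTTAGGGCCcc
HIST1H4K was lower in treated cells, as given below. HIST2H2AA3 had log2 ratios of -0.55, -0.06, -0.04 and -0.10 on arrays 1 to 4, below 0 on each but not past the threshold (log2 ratio -0.19, SE 0.087, limma adjusted p = 0.12).

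**Figure D1:**
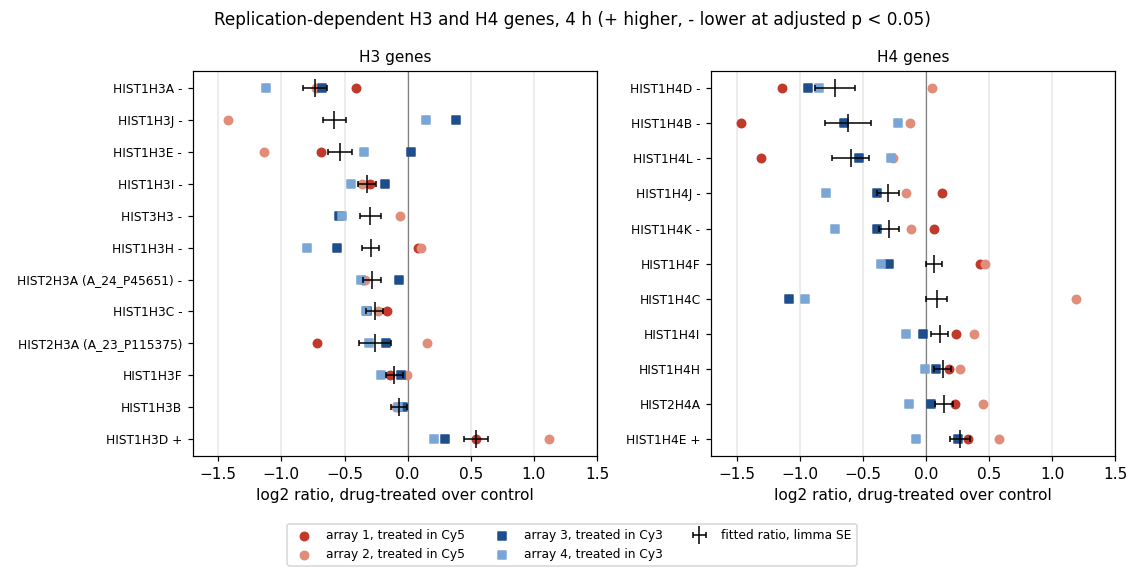
Log2 ratio of treated to control cells (x axis) for each tested H3 (left) and H4 probe (right) of the clusters; circles are arrays 1 and 2, squares arrays 3 and 4, and the black mark is the fitted ratio with its limma SE. Of 12 H3 probes 11 have a fitted ratio below 0, while the H4 probes run from -0.72 to 0.27.

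The H3 genes code for the core histone whose tail carries many of the known marks of active and silent chromatin. They had 8 of 12 tested probes lower and 1 higher in treated cells, and 11 fitted ratios were below 0, with a median of -0.29. HIST1H3A had log2 ratios of -0.41, -0.72, -0.68 and -1.12 on arrays 1 to 4. It was lower on every array and had the lowest fitted value of all histone probes, a log2 ratio of -0.73 ± 0.29 (SD, n = 4 arrays), or 1.66-fold lower (SE 0.092, limma adjusted p = 0.00051). HIST1H3C gave -0.17, -0.23, -0.32 and -0.33, a narrow range wholly below 0, and its log2 ratio was -0.26 ± 0.08 (SD, limma adjusted p = 0.013). HIST1H3I gave -0.30, -0.36, -0.18 and -0.45, lower on each array in both orientations, with a log2 ratio of -0.32 ± 0.11 (SD, limma adjusted p = 0.0091).

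HIST2H3A was read by a pair of probes. The probe at chr1:148090941-148091000 (hg18) gave -0.35, -0.33, -0.07 and -0.37, so that array 3 stood near 0 and the others together, and it was lower with a log2 ratio of -0.28 ± 0.14 (SD, limma adjusted p = 0.017). The probe at chr1:148091142-148091201 gave -0.72, 0.15, -0.17 and -0.31, with arrays 1 and 2 on either side of 0, and its log2 ratio of -0.26 ± 0.36 (SD) did not pass (limma adjusted p = 0.14). The fitted values of these probes of a single gene differed by less than either SE.

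For 4 other H3 probes the call rested on arrays that did not move together. HIST1H3E gave -0.68, -1.14, 0.03 and -0.34, lower on arrays 1, 2 and 4 and near 0 on array 3 (log2 ratio -0.53 ± 0.50 SD, limma adjusted p = 0.0031). HIST1H3H gave 0.08, 0.11, -0.56 and -0.80, so that both arrays with the treated RNA in Cy3 were below and both with Cy5 slightly above 0 (log2 ratio -0.29 ± 0.46 SD, limma adjusted p = 0.012). HIST1H3J, with its array 1 spot marked and left out, gave -1.42, 0.38 and 0.14 on arrays 2 to 4, and its fitted log2 ratio of -0.58 (SD 0.98 over 3 arrays, limma adjusted p = 0.0024) therefore averages opposite signs. The plain mean of these 3 arrays was -0.30. HIST3H3, a gene of the testis, gave -0.06, -0.55 and -0.52 on the same arrays (log2 ratio -0.30, SD 0.27, limma adjusted p = 0.027). Its marked spot on array 1 read 0.79, and with marked spots kept HIST3H3 was not past the threshold. This probe was the brightest of the cluster H3 probes, with a mean log2 intensity of 16.67 in treated and 16.76 in control RNA. Whether it read other H3 copies was not tested.

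HIST1H3D was the exception among the H3 genes. It gave 0.54, 1.12, 0.30 and 0.21, above 0 on every array, and its log2 ratio was 0.54 ± 0.41 (SD, n = 4 arrays), or 1.46-fold higher (SE 0.096, limma adjusted p = 0.0029). The remaining tested probes, HIST1H3F and HIST1H3B, were below 0 on each array at small sizes. HIST1H3F gave -0.14, -0.00, -0.06 and -0.22 and HIST1H3B -0.08, -0.09, -0.04 and -0.08, and neither passed (limma adjusted p = 0.26 and 0.42).

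The H4 genes code for the partner of H3 in the histone tetramer. Of 11 tested probes 5 were lower and 1 higher, and their median log2 ratio of 0.06 lay close to that of all probes, changing sign with the scaling (-0.07 after median centring and -0.03 with the processed signals of the scanner software). HIST1H4D gave -1.14, 0.05, -0.93 and -0.84, that is 3 arrays well below 0 and array 2 at 0, with a log2 ratio of -0.72 ± 0.53 (SD, n = 4 arrays), or 1.64-fold lower (SE 0.159, limma adjusted p = 0.0090). HIST1H4B gave -1.47, -0.13, -0.65 and -0.22, and HIST1H4L gave -1.31, -0.26, -0.53 and -0.28. In both, every array was below 0 and array 1 was far below the others, and they were lower with log2 ratios of -0.62 ± 0.61 (SD, limma adjusted p = 0.029) and -0.59 ± 0.49 (SD, limma adjusted p = 0.014). These 3 values depended on arrays 1 and 2. Without array 1 they were -0.42 for HIST1H4D, -0.28 for HIST1H4B and -0.33 for HIST1H4L, and without array 2 they were -1.02, -0.95 and -0.86, past the threshold in each case. All 3 calls ended without array 3, without array 4 and without the dye term. Those of HIST1H4B and HIST1H4L also ended with the authors' ratios, and that of HIST1H4B when marked spots were kept.

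HIST1H4J and HIST1H4K, whose probes overlap, gave 0.13, -0.16, -0.39 and -0.79, and 0.06, -0.12, -0.38 and -0.72. Both were below 0 on arrays 2 to 4 and slightly above it on array 1 (limma adjusted p = 0.027 and 0.021). HIST1H4E was higher, with 0.33, 0.58, 0.25 and -0.08 on arrays 1 to 4 (log2 ratio 0.27 ± 0.27 SD, limma adjusted p = 0.031), and array 4 lay on the other side of 0. The other 5 tested H4 probes had fitted log2 ratios from 0.06 (HIST1H4F) to 0.15 (HIST2H4A) and did not pass. HIST1H4C, for instance, gave 1.19, -1.08 and -0.96 on arrays 2 to 4, so that a fitted value of 0.08 stood for large and opposite ratios in the 2 orientations.

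**Figure D2:**
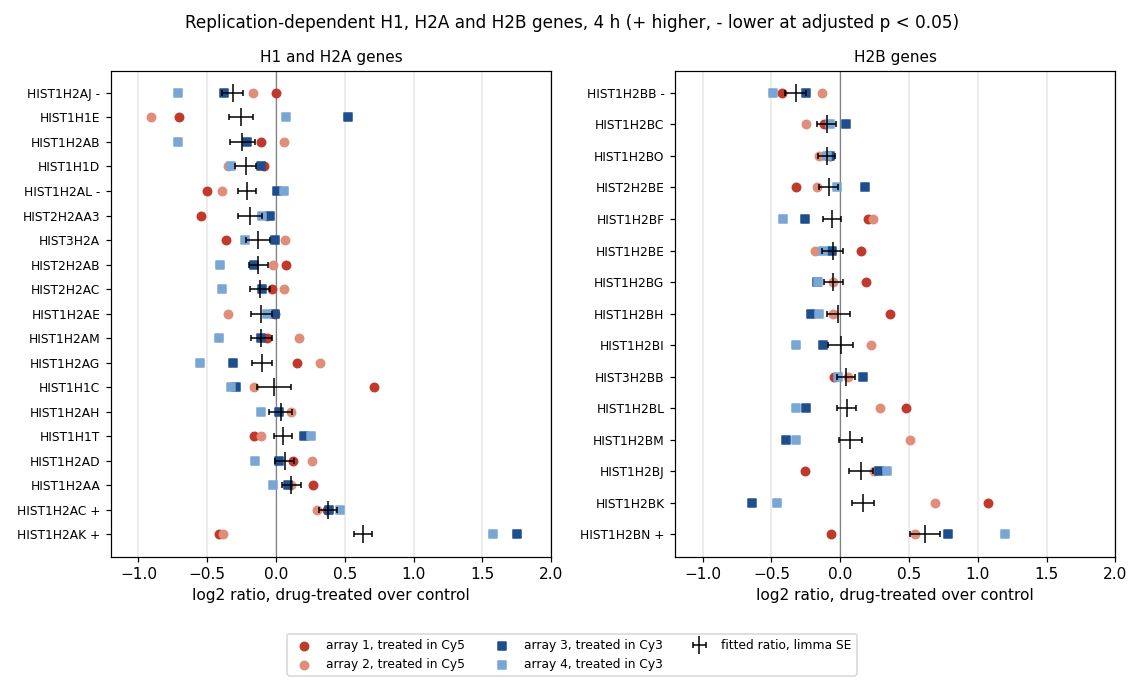
Log2 ratio of treated to control cells (x axis) for each tested H1 and H2A probe (left) and H2B probe (right) of the clusters; circles are arrays 1 and 2, squares arrays 3 and 4, and the black mark is the fitted ratio with its limma SE. All but 3 fitted ratios lie between -0.32 and 0.16, and HIST1H2AC, HIST1H2AK and HIST1H2BN stand above them at 0.38, 0.63 and 0.62.

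H2A and H2B form the dimers that flank the tetramer. Of 15 tested H2A probes 2 were higher and 2 lower, with a median log2 ratio of -0.11. HIST1H2AC gave 0.37, 0.30, 0.39 and 0.46, the most even values among the called histone probes. It was 1.30-fold higher, with a log2 ratio of 0.38 ± 0.07 (SD, n = 4 arrays; SE 0.065, limma adjusted p = 0.0025). The position of its probe, given below, limits what this value reads. HIST1H2AK gave -0.41, -0.38, 1.75 and 1.58, and so was lower in treated cells with one dye orientation and higher with the other. Its fitted log2 ratio of 0.63 had an SD of 1.19 over the arrays (limma adjusted p = 0.00024) and gives no direction that all arrays shared.

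The 2 lower H2A genes moved less. HIST1H2AJ gave 0.00, -0.17, -0.38 and -0.71, with array 1 at 0 and the others below it (log2 ratio -0.31 ± 0.31 SD, limma adjusted p = 0.014). HIST1H2AL gave -0.50, -0.40, 0.00 and 0.06, was well above background in each group on 2 arrays only, and had a log2 ratio of -0.21 ± 0.28 (SD, limma adjusted p = 0.034). HIST1H2AE was below 0 on each array, at -0.01, -0.35, -0.01 and -0.06, and did not pass (limma adjusted p = 0.31). HIST2H2AB and HIST2H2AC had fitted log2 ratios of -0.13 and -0.12 and did not pass.

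Of 15 tested H2B probes 1 was higher and 1 lower, and the median log2 ratio was -0.01. HIST1H2BB gave -0.42, -0.14, -0.25 and -0.49, lower on every array, with a log2 ratio of -0.32 ± 0.16 (SD, n = 4 arrays; SE 0.078, limma adjusted p = 0.013). HIST1H2BN gave -0.07, 0.55, 0.79 and 1.20, below 0 on array 1 and above it on the others (log2 ratio 0.62 ± 0.53 SD, limma adjusted p = 0.0031). Its signal cleared the background in each group on 2 arrays. HIST1H2BO gave -0.08, -0.15, -0.07 and -0.10, and this small and even difference did not pass (limma adjusted p = 0.26). HIST1H2BK gave 1.07, 0.69, -0.64 and -0.46, with opposite signs in the 2 orientations, and did not pass either (log2 ratio 0.16, limma adjusted p = 0.15).

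The linker histone H1 sits where DNA enters and leaves the nucleosome. None of its 4 tested cluster probes passed the threshold, and 2 of the 4 had an unadjusted p under 0.05. This count depended on the arrays and the processing, as 3 of 4 were lower without array 1, 1 was higher without array 2, and 2 were lower with the processed signals of the scanner software. HIST1H1D was below 0 on each array, at -0.09, -0.35, -0.11 and -0.33 (log2 ratio -0.22 ± 0.14 SD, limma adjusted p = 0.051), and it was past the threshold under 5 of 14 alternatives. HIST1H1E gave -0.70, -0.91, 0.52 and 0.07, with the 2 orientations on either side of 0 (log2 ratio -0.25 ± 0.67 SD, limma adjusted p = 0.051). The others were HIST1H1C at a log2 ratio of -0.02 and HIST1H1T, a testis gene, at 0.05.

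**Figure D3:**
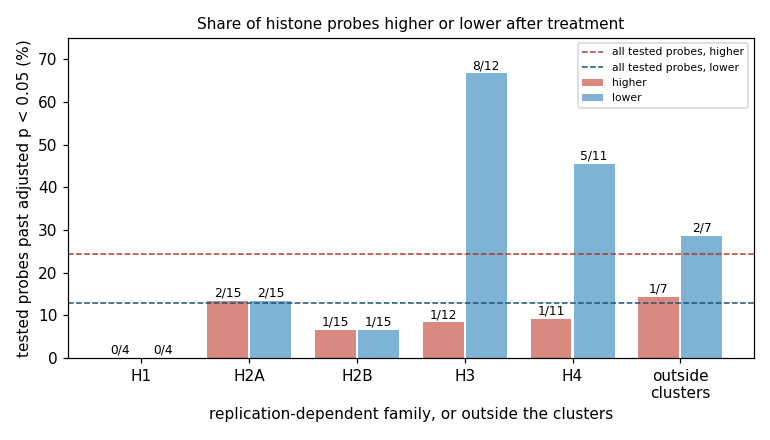
Share of tested probes (y axis, percent) that were higher or lower in treated cells at a limma adjusted p under 0.05, for each replication-dependent family and for the genes outside the clusters, with counts above the bars; dashed lines mark the shares over all tested probes. The H3 bar for lower probes stands at 8 of 12, and the H1, H2A and H2B bars stay near or under the dashed lines.

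Counting only probes that were called and lay on the same side of 0 on every array measured, 8 cluster probes were lower, of which 5 were H3, 2 were H4 and 1 was H2B, and 2 were higher (HIST1H2AC and HIST1H3D). Over all tested probes 6.62% were lower and 13.4% higher by this rule. By the adjusted p alone, HIST1 had 5 higher (10.6%) and 14 lower (29.8%) among 47 tested probes. HIST2 had 1 lower among 7 (14.3%) and HIST3 had 1 lower among 3. By that rule 24.3% of all tested probes were higher and 13.0% lower, so the HIST2 share lay near that over all probes. The only HIST4 probe, that of HIST4H4, was well above background on no array.

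Among the cluster probes, several of the higher calls, and none of the lower ones, came from probes designed on a transcript record other than a RefSeq mRNA. This grouping was made after the values had been seen and was not tested. Of the 57 tested cluster probes, 52 were designed on a RefSeq mRNA and 5 on another kind of transcript record (HIST1H2AC, HIST1H2AK, HIST1H2BJ, HIST1H2BN and HIST3H2BB). These 5 had fitted log2 ratios from 0.04 to 0.63, all above 0, and 3 were higher and none lower. The 52 others had 2 higher (HIST1H3D and HIST1H4E) and 16 lower probes, with fitted log2 ratios from -0.73 to 0.54. The 5 probes also had a lower GC content, from 30% to 40%, against a median of 53.3% for the 52 others and of 43.3% over all gene probes. HIST1H2AK, HIST1H2BJ, HIST1H2BN and HIST3H2BB were each well above background in each group on 2 of the 4 arrays. On hg18 the HIST1H2AC probe lies at chr6:26246801-26246860. That of HIST1H2BC, a gene with an overlapping promoter window, lies at chr6:26231962-26232021. HIST1H2AK and HIST1H2BN also have overlapping windows, with probes at chr6:27911306-27911365 and chr6:27928373-27928432. Probes were not placed within genes. Whether these 3 higher probes read the intronless histone mRNA was not tested. Outside the clusters the calls did not follow this grouping. H2AFV, whose probe was designed on another kind of record, was called lower. Of those designed on a RefSeq mRNA, H1FNT was called higher and H3F3A lower.

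**Figure D4:**
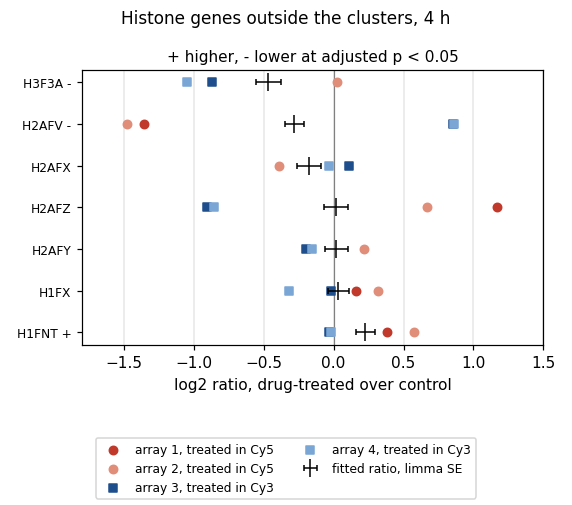
Log2 ratio of treated to control cells (x axis) for the 7 tested histone probes outside the clusters; circles are arrays 1 and 2, squares arrays 3 and 4, and the black mark is the fitted ratio with its limma SE. The probes of H2AFV and H2AFZ show the 2 orientations on opposite sides of 0, and no probe lies on the same side on every array measured.

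Outside the clusters, the H3 variant genes come first. H3F3A, whose 60-base probe spans 1239 bases of hg18 (chr1:224318801-224320039, plus strand) and so crosses at least 1 intron, gave 0.03, -0.87 and -1.05 on arrays 2 to 4. It was near 0 with the treated RNA in Cy5 and lower on both arrays with Cy3, and was called lower (log2 ratio -0.47, SD 0.58 over 3 arrays, SE 0.087, limma adjusted p = 0.0053). Its marked spot on array 1 read 0.71. H3F3B, which codes for the same protein, had marked spots on arrays 1 and 2 and could not be tested, and its other arrays read -0.26 and -0.39.

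Of the H2A.Z genes, H2AFV gave -1.36, -1.48, 0.85 and 0.86, that is 2 large and opposite effects of orientation, and its fitted log2 ratio of -0.28 (SD 1.31, limma adjusted p = 0.011) was called lower. H2AFZ gave 1.17, 0.66, -0.91 and -0.86, the reverse order, and did not pass (log2 ratio 0.02, limma adjusted p = 0.90). The 2 genes of this variant thus went opposite ways within each orientation. H2AFX, whose product H2A.X is phosphorylated at DNA breaks, gave -0.39, 0.11 and -0.03 on arrays 2 to 4 and did not pass (limma adjusted p = 0.15). H2AFY gave 0.22, -0.20 and -0.15 on these arrays and did not pass (limma adjusted p = 0.87).

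Of the linker histones outside the clusters, H1FX gave 0.16, 0.32, -0.02 and -0.32 and did not pass (limma adjusted p = 0.76). H1FNT, a gene of spermatids, gave 0.38, 0.58, -0.03 and -0.02, was called higher (log2 ratio 0.23 ± 0.30 SD, limma adjusted p = 0.031) and was well above background in each group on 2 arrays. The 12 histone probes that did not pass the filter on dim probes were those of H1F0, H1FOO, H2AFB2, H2AFJ, H2AFY2, HIST1H1A, HIST1H1B, HIST1H2BA, HIST1H3G, HIST1H4A, HIST1H4G and HIST4H4, so that their levels in K562 cells were not measured here.

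The cluster and non-cluster probes were then set beside each other on each array. The median log2 ratio of the cluster probes was -0.07, -0.02, -0.10 and -0.22 on arrays 1 to 4, and that of the probes outside the clusters was 0.27, 0.22, -0.03 and -0.15. The cluster median was the lower of the pair on each array, by 0.34, 0.24, 0.07 and 0.07, so that the gap was wide with the treated RNA in Cy5 and small with it in Cy3. The probes were not the same on each array, as marked spots left 4 of the 7 outside the clusters on array 1 (without H3F3A, H2AFX and H2AFY), where the gap was widest. With so few probes, of which 5 had a dye term past the threshold, these medians are a description. The fitted cluster median stayed below 0 under all 14 alternatives, while the median outside the clusters was above or below 0 depending on the scaling.

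**Figure D5:**
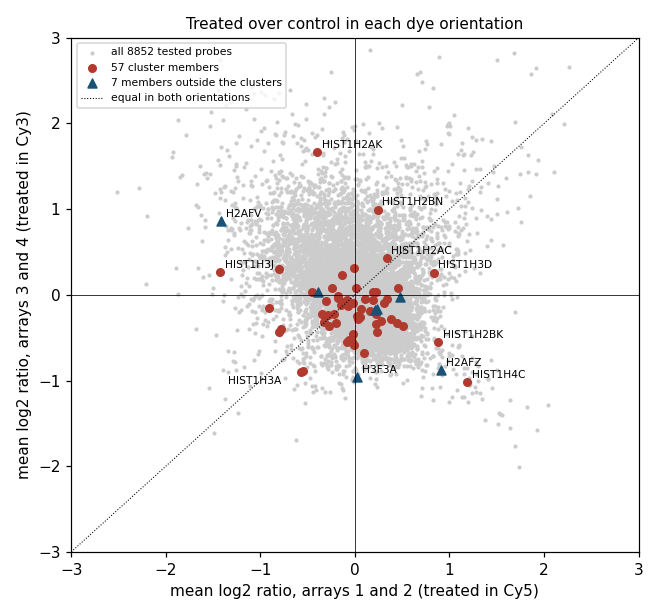
Mean log2 ratio of treated to control cells on arrays 1 and 2 (x axis, treated RNA in Cy5) against that on arrays 3 and 4 (y axis, Cy3), for all 8852 tested probes (grey), 57 cluster members (red) and 7 histone probes outside the clusters (blue triangles); 3 probes lie outside the axes. Probes changed alike in both orientations lie on the dotted line, as HIST1H2AC and HIST1H3A nearly do, while HIST1H2AK, HIST1H4C, H2AFV and H2AFZ lie far from it.

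The genes that make and process histone mRNA were followed as a group of background genes. Of 25 genes listed, 20 were on the array and tested, and 5 were higher, a share near that over all probes, and 1 was lower. CASP8AP2, which codes for FLASH, a factor of the histone locus body needed to cut the pre-mRNA, gave 0.27, 0.55, 0.97 and 0.99, above 0 on every array (log2 ratio 0.70 ± 0.34 SD, limma adjusted p = 0.00021). ZNF473, the zinc finger protein of the U7 snRNP complex, gave 0.68, 0.94, 0.07 and 0.35 (log2 ratio 0.51 ± 0.38 SD, limma adjusted p = 0.0015). LSM10, a ring protein of the U7 snRNP, was above 0 on each array too, with a log2 ratio of 0.29.

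NPAT, a target of cyclin E that activates histone gene transcription, gave -0.62, -0.15, 1.03 and 0.90, and HINFP, which binds H4 promoters, gave 0.58, 0.59, -0.20 and -0.07. Both were called higher (limma adjusted p = 0.031 and 0.028) with signs that differed between the orientations. NCBP1, of the cap-binding complex, was called lower at a log2 ratio of -0.25 with the same kind of split. SLBP gave -0.38, -0.20, 0.44 and 0.47 and did not pass (log2 ratio 0.08, limma adjusted p = 0.37).

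Histone chaperones, which carry histones to DNA, had 24 tested probes of 28 genes listed, with 4 higher (16.7%) and 5 lower (20.8%), against 24.3% and 13.0% over all tested probes. SUPT16H, a subunit of FACT, gave -0.44, -0.48, -0.27 and -0.49, and was lower on every array (log2 ratio -0.42 ± 0.10 SD, limma adjusted p = 0.0021). CHAF1B, of the chromatin assembly factor CAF-1 that loads H3 and H4 behind the replication fork, gave -0.04, 0.05, 0.94 and 0.87, near 0 in one orientation and higher in the other (log2 ratio 0.46 ± 0.52 SD, limma adjusted p = 0.0010). ASF1A, OIP5 and NASP were also called higher, at log2 ratios of 0.33, 0.27 and 0.27, and DNAJC9 lower, at -0.26. ASF1A gave -0.87, -0.69, 1.49 and 1.40, with opposite signs in the 2 orientations. OIP5 gave -0.06, 0.61 and 0.59 on arrays 2 to 4, and NASP 0.18, -0.10, 0.31 and 0.66 on arrays 1 to 4. Of the called chaperones, 0 higher and 3 lower ones lay on the same side of 0 on every array measured. CENPA, the centromeric H3 variant, had a log2 ratio of -0.02 and did not pass.

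Other genes of S phase were called in both directions. Of 24 genes listed and tested, 4 were higher and 4 lower, or 16.7% each against 24.3% and 13.0% over all tested probes, with a median log2 ratio of 0.04. The lower genes included FEN1 (-0.36), which trims Okazaki fragments, and RRM2 (-0.33), a subunit of ribonucleotide reductase. The higher ones were CDC45 (0.33), MCM5 (0.32) and MCM6 (0.30), of the replicative helicase, and CDT1 (0.29), which loads it. All of these are fitted log2 ratios. Of the called S-phase genes, 1 higher and 3 lower ones lay on the same side of 0 on every array measured. Without array 3 or without array 4, no S-phase gene was higher and 1 was lower, and the chaperones had 1 higher and 1 lower.

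The families also differ in the letters of their promoters. Promoters of 300 bases, from 250 before to 50 after the start of each gene (RefSeq, GRCh38.p14), were found for 70 of the 76 gene names, 58 of them of the clusters, and searched on both strands for the TATA box letters TATAAA, for CCAAT, and for the octamer ATTTGCAT, which binds OCT1 in H2B genes. TATAAA was in 65.5% of the cluster promoters and in 11.5% of all promoters in the table, CCAAT in 84.5% and 34.6%, and ATTTGCAT in 43.1% and 1.77%. The octamer was in 13 of 16 H2B and 11 of 14 H2A promoters, in 1 of 10 H3 promoters and in none of the 12 of H4. CCAAT was in all 10 H3 promoters and in 3 of 12 H4 promoters. These windows are not all separate sequences. The H3 cluster window with the octamer, that of HIST1H3D, is also the window of HIST1H2AD, and 10 pairs of an H2A and an H2B gene have overlapping windows, of which 8 held the octamer in both. The last 120 bases before the start of HIST1H3A, HIST1H2BB and HIST1H4B, all lower in treated cells, are shown as examples of the families, with the searched letters in capitals, at chr6:26020331-26020450 (plus strand), chr6:26043714-26043833 (minus strand) and chr6:26027284-26027403 (minus strand).
HIST1H3A: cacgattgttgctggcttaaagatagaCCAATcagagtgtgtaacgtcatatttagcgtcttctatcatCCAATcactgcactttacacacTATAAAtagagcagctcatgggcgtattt
HIST1H2BB: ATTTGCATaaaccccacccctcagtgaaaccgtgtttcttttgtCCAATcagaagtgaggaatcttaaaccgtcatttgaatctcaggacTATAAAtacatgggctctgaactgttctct
HIST1H4B: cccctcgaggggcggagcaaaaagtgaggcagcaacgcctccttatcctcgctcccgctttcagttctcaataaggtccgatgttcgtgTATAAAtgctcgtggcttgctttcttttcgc
The match of letters is a description of these windows. Cluster promoters were also counted by call, with 13 windows of lower genes, 5 of higher ones and 34 of genes not called. HIST2H3A was counted among those not called, although 1 of its probes was called lower. TATAAA was in 84.6%, 20.0% and 64.7% of these, CCAAT in 69.2%, 80.0% and 94.1%, and ATTTGCAT in 23.1%, 40.0% and 55.9%. Of the 5 windows of higher genes, those of HIST1H2AK and HIST1H2BN share 293 of 300 bases, and that of HIST1H3D is also that of HIST1H2AD. The groups also differ in family, as 8 of the 16 lower cluster probes were of H3 and 5 of H4. The differences between these shares were not tested.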

How the data were processed

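K562 total RNA was amplified, labelled with Cy5 or Cy3 and hybridised on 4 Agilent arrays with dye swap. The authors deposited, from Feature Extraction 9.5.1.1, each spot's intensity and that of its background. The authors also deposited log10 ratios, which read treated over control (99.9% to 100% of values per array lay within 0.001 of the scanner ratio so turned).

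Background was corrected by normexp with an offset of 50, control spots then being dropped, and loess (span 0.3) normalized each array without spots marked as outliers. Log2 ratios were fitted in limma 3.58.1 (R 4.3.3), the terms being treatment and dye. The step was tested on simulated data with independent noise on each array and the fitted dye terms. Such data follow the model, so they do not test the dependence on single arrays reported here. Positions of probes are on hg18, as in the files. The number of arrays limits the precision. An exact two-sided sign-flip permutation test over 4 arrays has a smallest p of 0.125 and was not used.

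The histone genes and the gene lists were chosen with earlier results of these data known. Named genes are all called histone probes, all tested ones outside the clusters, those on one side of 0 on every array, up to 6 called genes per list by size, and CENPA. Others, such as HIST1H4C, HIST1H2BK and SLBP, were chosen after their values were seen. The alternatives tried were the processed signals, no background subtraction, median centring, the authors' ratios, other filters, no dye term, marked spots kept, averaging arrays into pairs and leaving out each array. A listed marker gene is not reported here.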

Additional observations from a re-analysis of the deposited data

Results flagged for a closer look

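Of the 55 tested histone probes with a value on all 4 arrays, 5 had an array far from the other 3, as the gap to the nearest array took up more of the whole range than Dixon's critical value for 4 samples allows. Here 9.09% were flagged. Chance flags about 1 in 20 where the 4 values are independent draws from the same normal distribution. These arrays fall into 2 dye orientations and the probes share slides, so the share flagged cannot be judged against that rate. The gap was 0.839 of the range for HIST1H1C (array 1), 0.832 for HIST1H2AE (array 2), 0.841 for HIST1H2BJ (array 1), 0.883 for HIST2H2AA3 (array 1) and 0.874 for the called HIST2H3A probe (array 3). HIST1H1C, a linker histone, read 0.71 on array 1 against -0.16, -0.29 and -0.33 on arrays 2 to 4. HIST1H2BJ read -0.26 on array 1 against 0.25, 0.28 and 0.34.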

How the results depend on the processing

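All 24 called histone probes kept their direction under each of the alternatives that could be fitted, and none reversed. With processed signals the counts changed to 0 higher outside the clusters, 2 higher and 2 lower for histone mRNA processing, 1 higher chaperone and 1 higher S-phase gene. With median centring they were 9 lower in the clusters, 0 higher and 1 lower outside them, 0 lower for mRNA processing, 2 higher and 2 lower chaperones and 1 higher S-phase gene. With the authors' ratios they were 0 higher outside the clusters, 2 higher for mRNA processing, 1 higher and 2 lower chaperones and 1 higher S-phase gene. Without the filter 3 chaperones were lower. With a filter that asked both channels of every array to clear the background, 2 cluster probes and 0 outside were higher. With marked spots kept 2 chaperones were higher and 3 lower. Without the dye term every count was 0, and 10 histone probes had an unadjusted p under 0.05 in limma, the smallest adjusted p being 0.096 (HIST1H3A). Treated and control RNA were paired within each array, as the fit used their ratio. The labels give no further pairing between arrays. Arrays averaged as pairs across orientations, in either pairing, gave 1 lower probe outside the clusters, 3 lower chaperones and 2 higher S-phase genes.

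Leaving out each array in turn gave from 4 to 7 higher and 1 to 19 lower cluster probes, 0 to 1 higher and 0 to 2 lower outside the clusters, medians from -0.13 to -0.06 and from -0.11 to 0.07, 2 to 6 higher and 0 to 1 lower for mRNA processing, 1 to 4 higher and 1 to 4 lower chaperones, and 0 to 5 higher and 1 to 5 lower S-phase genes. Without array 4, 1 cluster probe was lower (HIST1H3A), and without array 3, 11 were. The lower calls over all probes were then 283 of 7997 without array 4 and 444 of 8011 without array 3. H3 probes were lower in 5 of 12 under median centring, and in 1 of 10 without array 4. Over all probes, higher and lower calls were 2155 and 1151, but 1434 and 1667 with processed signals and 2286 and 589 with median centring. Dim signal left 12 histone probes unmeasured. The causes of these shifts were not tested.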
